A study of Mus musculus with 21 samples.

Results

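The genes described here encode factors that make, process and resolve the DNA double-strand breaks of meiosis in mouse male germ cells. They were chosen by name: *Spo11*, *Mei1*, *Dmc1*, *Hfm1*, *Msh4*, *Msh5*, *Rnf212* and *Mlh3*. Of these 8 genes, 7 had a row among the 24456 genes of the count tables, and *Rnf212* is not analysed here. RNA was sequenced in 21 libraries of purified mouse spermatogenic cell fractions. There were 3 wild-type (H2al2 WT) and 3 *H2al2* KO libraries of pachytene spermatocytes, of round spermatids and of condensing spermatids, and 2 wild-type and 1 *H2al2* KO library of spermatozoa. *H2al2* encodes H2A.L.2, a histone H2A variant of late spermatids, and the KO carries no other allele or treatment in the labels. Fractions are enriched and not pure, and the age of the animals, the structure of the KO allele and the number of animals behind a library are not given in the sources used here. Where replicates were not separate animals, p-values measure only the spread between these libraries.

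Meiotic recombination begins when SPO11, a topoisomerase-like protein, cuts both DNA strands, a step that also needs MEI1. The ends are trimmed, and the recombinase DMC1 pairs them with the homologous chromosome. The helicase HFM1 and the MutS proteins MSH4 and MSH5, which act as a pair, stabilise the joined intermediates, RNF212 helps to choose those that become crossovers, and an endonuclease that contains MLH3 resolves them in pachytene spermatocytes. Breaks and strand exchange belong to the stages before pachytene, while spermatids are haploid and no longer recombine.

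Counts on genes ranged from 5799060 to 8201682 in the 18 libraries of the 3 stages and from 2772995 to 3450580 in spermatozoa. Levels are given as CPM, a library's counts scaled to a common depth with TMM factors over the 21 libraries, and a count of 0 allows up to 3 counts, which is 0.366 to 1.08 CPM depending on the library. Replicates 2 and 3 of wild-type round spermatids resembled each other more than any other pair of replicates did. Over genes with 100 to 1000 summed counts their mean chi-square was 1.06, close to pure sampling noise, and those of the 18 other pairs were 1.90 to 12.2. At over 10000 summed counts it was 8.76, above sampling noise but again the lowest, with the 18 other pairs at 65.9 to 593. Replicates 2 and 3 were kept as separate libraries. The counts of recombination genes called at the wild-type stage steps are also given with these libraries summed. Counts called between genotypes in round spermatids and for the interactions are given with them separate. The authors describe their wild-type round spermatid transcriptomes as 3 independent biological replicates. Whether replicates 2 and 3 come from 1 RNA was not tested. P-values that use wild-type round spermatids treat them as independent unless said to be summed. *H2afb1*, the symbol under which the gene of H2A.L.2 is listed, did not overlap between genotypes at any of the 3 stages and was the lower in KO, at 23.8 CPM against 206 CPM on average in round spermatids, a log2 fold change of -3.10 (SE 0.10, adjusted p = 3.4e-08). In condensing spermatids it was -2.71 (adjusted p = 9.54e-07), and in pachytene spermatocytes, at 4.28 against 30.5 CPM, it was -2.75 and not called (adjusted p = 0.484). The pachytene genotype test thus called no gene, the targeted one included.

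In wild-type pachytene spermatocytes the 7 genes spanned a wide range of RNA levels once scaled by exon length. *Spo11* stood highest at 43.8 ± 2.54 CPM per kb of exon (SD, n = 3), followed by *Mlh3* at 23.4 ± 6.19 and *Hfm1* at 14.9 ± 6.60. *Msh5* reached 4.19 ± 0.48, *Msh4* 3.98 ± 0.92 and *Dmc1* 3.06 ± 0.40 CPM per kb, values whose spreads touch those of their neighbours, and *Mei1* was lowest at 1.62 ± 0.29. The spreads of *Mlh3* and *Hfm1* likewise overlapped, although *Mlh3* was above *Hfm1* in each library. *Mlh3* measured 23.8, 17.1 and 29.4 and *Hfm1* 14.8, 8.27 and 21.5 CPM per kb in replicates 1, 2 and 3. *Spo11* lay above both beyond the spreads. In wild-type round spermatids *Spo11* was still highest, at 20.99 ± 1.55 CPM per kb, and *Mei1* still lowest, at 2.46 ± 0.19.

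**Figure D1:**
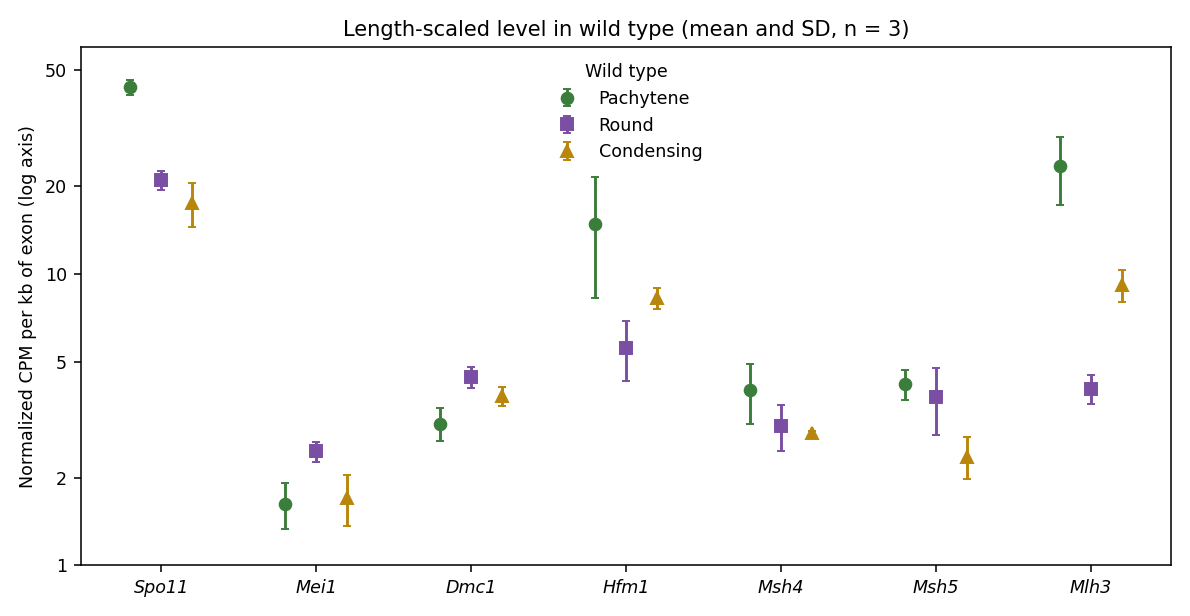
Level per kb of exon (normalized CPM per kb, log axis) of the 7 genes in the 3 wild-type stages; points are means and bars SDs of 3 libraries. *Spo11* is the highest gene at every stage, and *Mlh3* shows the largest fold drop, from 23.4 in pachytene spermatocytes to 4.04 in round spermatids.

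*Spo11* (chr2:172977379-172993576, plus strand, RefSeq annotation of GRCm38.p6, the assembly of mm10) fell after meiosis. Its wild-type pachytene libraries measured 81.5, 72.7 and 76.4 CPM, the round spermatid libraries 40.0, 35.3 and 35.3 CPM, and the condensing spermatid libraries 30.6, 36.3 and 25.6 CPM. Every pachytene library lay above every spermatid library, while round and condensing libraries overlapped. The *H2al2* KO libraries repeated the drop, with 75.8, 81.3 and 82.8 CPM in pachytene spermatocytes, 32.6, 30.6 and 33.4 CPM in round spermatids, and 27.7, 24.9 and 26.5 CPM in condensing spermatids. From pachytene spermatocytes to round spermatids the log2 fold change was -1.04 (SE 0.13, adjusted p = 1.28e-05) in wild type and -1.33 (SE 0.10, adjusted p = 5.1e-10) in *H2al2* KO, by the edgeR quasi-likelihood test, adjusted over all genes by Benjamini-Hochberg. The step from round to condensing spermatids gave -0.23 (SE 0.14, adjusted p = 0.187) in wild type and -0.27 (SE 0.11, adjusted p = 0.0437) in *H2al2* KO, and the latter passed the threshold in 4 of 15 alternative settings. The counts cover all exons of the gene together, so its splice forms are not told apart.

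*Mei1* (chr15:82070074-82126817, plus strand), whose product is needed for break formation, did not follow *Spo11*. Wild-type pachytene libraries held 5.86, 6.4 and 8.18 CPM, against 9.53, 11.2 and 10.3 CPM in round spermatids and 6.30, 6.39 and 8.78 CPM in condensing spermatids. The round spermatid libraries were the highest of the 3 wild-type stages without overlap, though from only 71 to 80 counts each. *Mei1* rose from pachytene to round by 0.63 (log2, SE 0.20, adjusted p = 0.0116), and fell from round to condensing by 0.51 (log2, SE 0.20, adjusted p = 0.0498). That fall was called in 6 of 16 alternatives, with adjusted p between 0.0213 and 0.154. In *H2al2* KO the libraries were more scattered, at 8.32, 4.91 and 7.70 CPM in pachytene, 11.4, 9.99 and 4.75 CPM in round and 7.19, 7.88 and 7.36 CPM in condensing cells. Their stage groups overlapped, and neither step passed the test, with log2 fold changes of 0.30 (SE 0.26, adjusted p = 0.306) and -0.21 (SE 0.26, adjusted p = 0.518). Without KO round spermatid replicate 3, the low library, both KO steps were called, at 0.61 (adjusted p = 0.0167) and -0.53 (adjusted p = 0.0488).

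*Dmc1* (chr15:79561497-79605159, minus strand), the meiosis-specific recombinase, was likewise not highest in pachytene spermatocytes. It measured 7.77, 6.04 and 6.57 CPM in wild-type pachytene libraries, 9.39, 9.34 and 10.7 CPM in round spermatids and 8.60, 8.998 and 7.73 CPM in condensing spermatids. The *H2al2* KO libraries gave 6.94, 6.34 and 3.42 CPM in pachytene spermatocytes, 11.3, 7.06 and 8.63 CPM in round spermatids and 7.47, 7.33 and 8.28 CPM in condensing spermatids. In both genotypes every round spermatid library exceeded every pachytene library. The step from pachytene to round was a rise of 0.55 (log2, SE 0.17, adjusted p = 0.0108) in wild type and of 0.68 (log2, SE 0.24, adjusted p = 0.0162) in *H2al2* KO. Neither step from round to condensing was called, at -0.19 (SE 0.17, adjusted p = 0.381) in wild type and -0.21 (SE 0.23, adjusted p = 0.452) in *H2al2* KO.

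The rises of *Mei1* and *Dmc1* depended on the scaling, and those of *Mei1* in wild type and *Dmc1* in *H2al2* KO also on single libraries. The wild-type *Dmc1* rise was called in 15 of 16 alternatives and was lost only with library size alone. With library size alone, which lowers the median wild-type change of all genes from -0.02 to -0.20, the *Mei1* rise was 0.44 (adjusted p = 0.0591) and the *Dmc1* rise 0.37 (adjusted p = 0.0779), both still above that median and in the same direction. Under the same scaling the *Dmc1* rise in *H2al2* KO was 0.53 (adjusted p = 0.0662), where the median of all genes was -0.15. The wild-type *Mei1* rise was also lost without pachytene replicate 1 (0.52, adjusted p = 0.0577). The KO *Dmc1* rise was lost without KO pachytene replicate 3 (0.41, adjusted p = 0.107) or KO round replicate 1 (0.50, adjusted p = 0.0918).

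**Figure D2:**
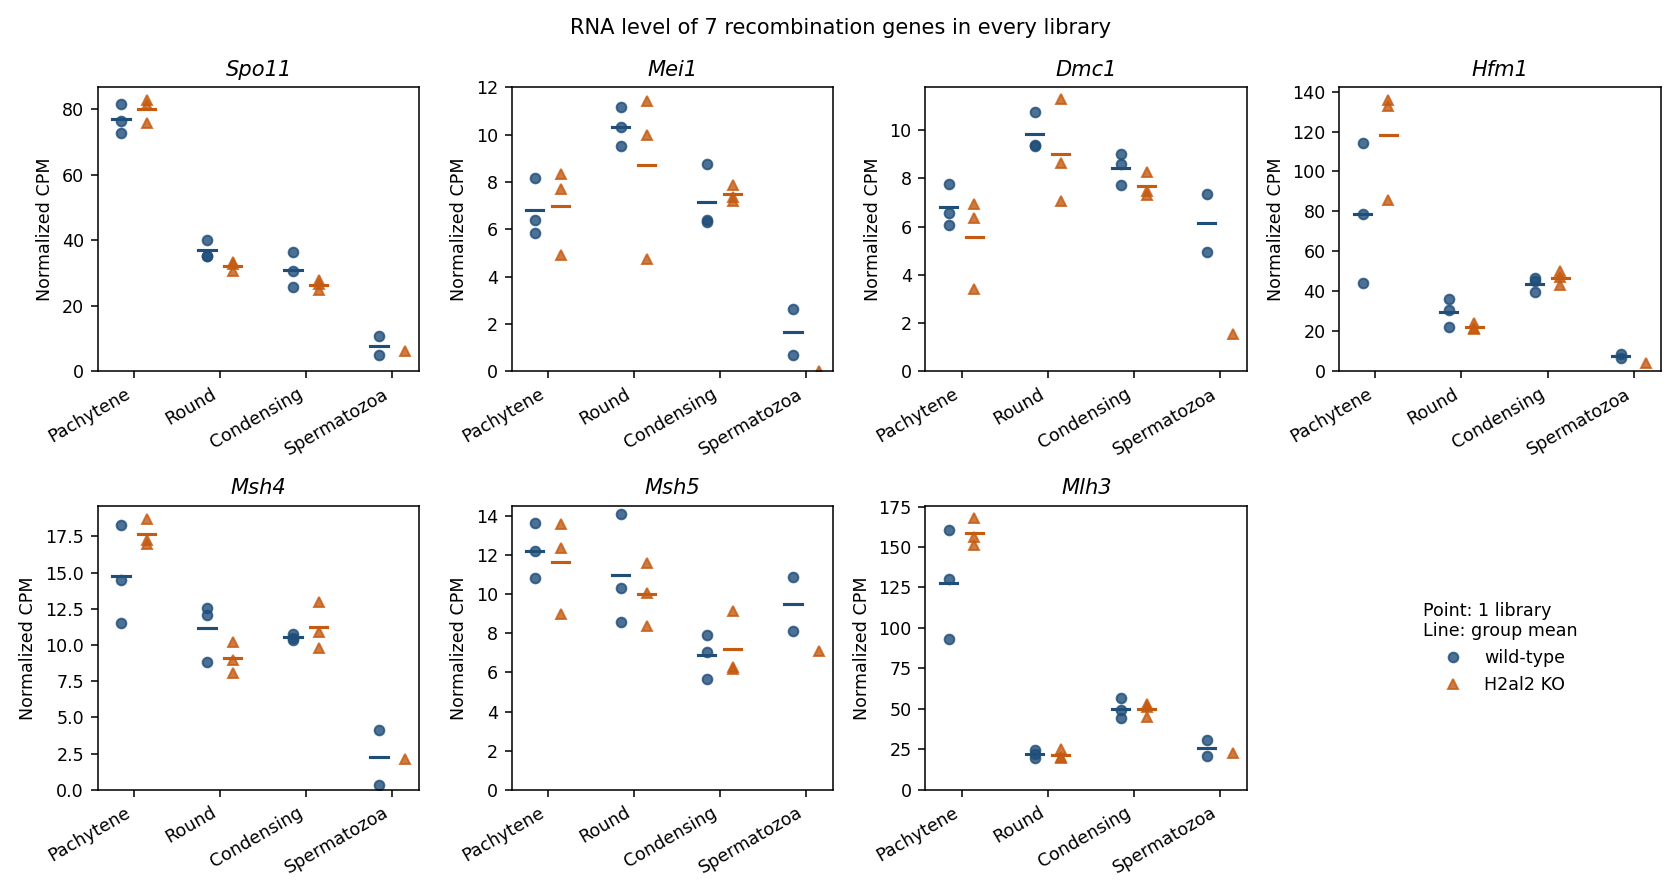
Normalized CPM of the 7 genes in each of the 21 libraries, by stage and genotype; each point is a library and each short line a group mean. *Spo11*, *Hfm1* and *Mlh3* have all pachytene points above all round spermatid points in both genotypes, and *Dmc1* has them below.

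The promoter windows of *Hfm1*, *Msh5* and *Mlh3* are printed because *Hfm1* and *Msh5* were the genes of the set whose RefSeq windows held CNCCTCAG (N is any base), the letters bound by STRA8 and MEIOSIN, which switch on meiotic genes at entry into meiosis, while *Mlh3*, with the largest fall, held none of the motifs searched. Each line runs 5′ to 3′ on the gene's own strand, from 250 bases before the transcript start to 30 bases after it, with motif matches in capitals. The windows are chr5:106925861-106926140 for *Hfm1*, chr17:35046593-35046872 for *Msh5* and chr12:85270570-85270849 for *Mlh3*, all on the minus strand of GRCm38.p6.
Hfm1: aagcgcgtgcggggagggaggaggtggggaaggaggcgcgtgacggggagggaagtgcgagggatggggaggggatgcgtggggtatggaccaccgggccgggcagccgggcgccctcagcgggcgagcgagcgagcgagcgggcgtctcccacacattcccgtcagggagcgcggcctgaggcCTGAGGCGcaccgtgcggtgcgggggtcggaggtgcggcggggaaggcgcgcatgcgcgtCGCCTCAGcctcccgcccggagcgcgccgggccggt
Msh5: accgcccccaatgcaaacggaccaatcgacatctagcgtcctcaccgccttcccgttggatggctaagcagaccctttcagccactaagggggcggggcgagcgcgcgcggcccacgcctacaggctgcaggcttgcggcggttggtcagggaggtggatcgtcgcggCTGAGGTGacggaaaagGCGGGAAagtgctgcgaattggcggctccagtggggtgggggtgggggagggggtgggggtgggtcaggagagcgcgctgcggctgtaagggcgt
Mlh3: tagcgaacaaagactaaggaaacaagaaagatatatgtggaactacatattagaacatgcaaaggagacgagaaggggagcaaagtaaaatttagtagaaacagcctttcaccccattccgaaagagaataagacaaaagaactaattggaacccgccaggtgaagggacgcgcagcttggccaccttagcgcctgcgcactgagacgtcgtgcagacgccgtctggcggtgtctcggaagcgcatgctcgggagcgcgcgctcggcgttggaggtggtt
In *Hfm1* the capitals begin 66 and 6 bases before the start and are both CNCCTCAG, once on the other strand. In *Msh5* the capitals begin 82 bases before the start (CNCCTCAG, other strand) and 65 bases before it (TTCCCGC, the E2F letters, other strand).

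Motifs were searched on both strands of the full windows, which reach 50 bases past the start, and no matches overlapped. Windows were found for 7 of the 8 named genes, *Rnf212* included and *Spo11* not, and *Mlh3* had 2 that nearly coincide. CNCCTCAG was present in the windows of 2 of these 7 genes and in 7.94% of all 32851 RefSeq windows, and TTCCCGC in 2 of the 7 (*Msh5* and *Rnf212*) and in 4.6% of all. CACGTG, an E-box, occurred in *Rnf212* only, against 7.15% of all windows. GGCAGTT, the A-MYB letters, and TGACGTCA, the cAMP response element, were in none of the 7, against 4.12% and 1.79% of all windows. The *Hfm1* window was the richest in G and C, at 75.3% with 41 CpG, followed by *Dmc1* at 69.0% and *Msh5* at 67.3%, while *Mlh3* at 51.7%, *Mei1* at 46.7% and *Msh4* at 43.3% lay under the median of all windows, 52.7%. Each window is placed on a transcript that begins inside the widest RefSeq span of its gene. For *Mei1* the window is chr15:82082226-82082525, while the plus-strand span begins at 82070074. For *Msh4* it is chr3:153904842-153905141, while the minus-strand span begins at 153906138. For *Hfm1* the full window is chr5:106925841-106926140, while the minus-strand span begins at 106926712. For *Msh5* it is chr17:35046573-35046872, while the minus-strand span begins at 35046997. Values of the windows of *Mei1*, *Msh4*, *Hfm1* and *Msh5* describe internal starts, and the first bases of their spans were not searched.

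*Hfm1* (chr5:106840193-106926712, minus strand), the crossover helicase, fell steeply from pachytene spermatocytes to round spermatids and was higher again in condensing spermatids. Wild-type pachytene libraries measured 78.8, 44.0 and 114 CPM, a wide spread in which replicate 2 was low, against 22.3, 36.1 and 30.8 CPM in round and 39.8, 46.9 and 45.0 CPM in condensing spermatids. *H2al2* KO libraries measured 133, 136 and 85.9 CPM in pachytene, 21.6, 21.2 and 24.2 CPM in round and 47.3, 50.2 and 43.2 CPM in condensing cells. In each genotype the 3 pachytene libraries lay above the round libraries, and the condensing libraries lay between or overlapped the lowest pachytene library. The log2 fold change from pachytene to round was -1.39 (SE 0.28, adjusted p = 0.000604) in wild type and -2.43 (SE 0.16, adjusted p = 3.66e-11) in *H2al2* KO. From round to condensing, *Hfm1* rose in *H2al2* KO by 1.09 (log2, SE 0.16, adjusted p = 1.56e-05), and the wild-type difference of 0.59 (SE 0.28, adjusted p = 0.0999) was not called although its libraries did not overlap. The wild-type difference passed the threshold without pachytene replicate 2 (adjusted p = 0.0189) and without pachytene replicate 3 (adjusted p = 0.0258), which share the estimate of spread.

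*Msh4* (chr3:153857141-153906138, minus strand) and *Msh5* (chr17:35028605-35046997, minus strand), whose proteins form a clamp on recombination intermediates, had smaller log2 fold changes, and passed the test at different steps. *Msh4* measured 14.5, 11.5 and 18.3 CPM in wild-type pachytene, 8.86, 12.5 and 12.1 CPM in round and 10.8, 10.5 and 10.4 CPM in condensing libraries. In *H2al2* KO it measured 17.0, 18.7 and 17.3 CPM, then 8.09, 8.97 and 10.2 CPM, then 9.77, 13.0 and 10.9 CPM at the same stages. Pachytene and round libraries overlapped in wild type and did not in *H2al2* KO, and the log2 fold change was -0.98 (SE 0.16, adjusted p = 2.32e-05) in *H2al2* KO and -0.38 (SE 0.19, adjusted p = 0.0976) in wild type. The fall was called in *H2al2* KO, and the interaction given further on did not call the genotypes different. The wild-type value was called without pachytene replicate 2 (-0.54, adjusted p = 0.0216) and with library size alone (-0.57, adjusted p = 0.021). *Msh4* was not called from round to condensing in either genotype, at -0.05 (SE 0.20, adjusted p = 0.844) and 0.32 (SE 0.17, adjusted p = 0.122).

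*Msh5* was not called from pachytene to round, and fell from round to condensing in wild type. Its wild-type libraries gave 12.2, 13.6 and 10.8 CPM in pachytene, 14.1, 10.3 and 8.56 CPM in round and 7.07, 5.66 and 7.90 CPM in condensing cells. The *H2al2* KO libraries gave 13.6, 12.4 and 8.99 CPM, 11.6, 8.38 and 10.1 CPM, and 6.18, 9.13 and 6.29 CPM. Pachytene and round libraries overlapped in both genotypes, with log2 fold changes of -0.13 (SE 0.20, adjusted p = 0.581) and -0.23 (SE 0.20, adjusted p = 0.303). The later step was a fall of *Msh5* by 0.66 (log2, SE 0.22, adjusted p = 0.0229) in wild type, where the libraries did not overlap, and the KO value was -0.45 (SE 0.21, adjusted p = 0.0802). The wild-type fall was called in 13 of 16 alternatives and lost without condensing replicate 1 (adjusted p = 0.0506), condensing replicate 2 (0.0662) or round replicate 1 (0.0997).

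*Mlh3* (chr12:85234466-85270647, minus strand), the endonuclease subunit that resolves crossovers, had the largest fold change of the 7 genes at both steps and in both genotypes. It measured 130.0, 93.3 and 161 CPM in wild-type pachytene libraries, 24.7, 19.5 and 22.1 CPM in round spermatids and 44.4, 56.8 and 49.3 CPM in condensing spermatids. The *H2al2* KO values were 156, 168 and 151 CPM, then 19.4, 19.99 and 25.2 CPM, then 52.7, 51.2 and 45.2 CPM. Pachytene, round and condensing libraries did not overlap in either genotype, with condensing spermatids between the others. The fall from pachytene to round was -2.51 on the log2 scale (SE 0.20, adjusted p = 1.92e-07) in wild type and -2.90 (SE 0.12, adjusted p = 2.4e-13) in *H2al2* KO, which left 17.5% and 13.4% of the pachytene level. The wild-type fall lay at the 2.74th percentile of log2 fold changes over all genes tested. *Mlh3* then rose from round to condensing by 1.21 (log2, SE 0.19, adjusted p = 0.000292) in wild type and by 1.23 (log2, SE 0.13, adjusted p = 2.22e-07) in *H2al2* KO. Both *Mlh3* steps were called in each of 16 alternatives in wild type and each of 15 in *H2al2* KO.

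Counted over the set, the step from pachytene spermatocytes to round spermatids lowered 3 of the 7 genes in wild type (*Spo11*, *Hfm1*, *Mlh3*) and raised 2 (*Mei1*, *Dmc1*). In the same test 35.9% of all 14011 genes were called lower and 34.4% higher, so that many genes moved between these fractions and the share of the 7 is near that background. The median log2 fold change was -0.38 over the 7 and -0.02 over all genes. In *H2al2* KO 4 genes were lower (*Spo11*, *Hfm1*, *Msh4*, *Mlh3*) and 1 was higher (*Dmc1*), against 38.4% and 36.5% of 13877 genes, with a median of -0.98 against 0.00 over all genes. With wild-type round replicates 2 and 3 summed, the same 5 wild-type genes were called. Markers of later germ cells moved with this step: the summed level of 8 elongating spermatid markers, all detected, was 1896 to 4848 CPM in wild-type pachytene and 23490 to 26000 CPM in round spermatids. Late spermatocyte markers summed to 5121 to 6015 CPM and 4346 to 4669 CPM, but without *Piwil1* (1150 to 63.5 CPM) the mean sum was 4427 and 4415 CPM, with 3 of 8 higher and 5 lower. Early spermatocyte markers summed to 153.5 to 205 CPM and 55.1 to 66.3 CPM, and without *Tex101* to 28.0 and 27.7 CPM on average. All 7 Leydig markers were lower, their sum going from 76.0 to 158 CPM to 11 to 13.9 CPM. All 7 macrophage markers were higher, with mean sums of 3.72 and 23.4 CPM. Of 8 Sertoli markers 6 were higher and 2 lower, with mean sums of 34.2 and 47.3 CPM. Of 6 peritubular myoid markers 3 were higher and 3 lower, and without *Actg2* (63.5 to 319 CPM) the mean sum was 16.95 and 15.7 CPM. The part of cell mixture in these changes was not tested, and in bulk fractions fewer cells of a type and less RNA per cell cannot be told apart.

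From round to condensing spermatids, wild type had 1 gene higher (*Mlh3*) and 2 lower (*Mei1*, *Msh5*), against 28.3% and 21.8% of all genes. *H2al2* KO had 2 higher (*Hfm1*, *Mlh3*) and 1 lower (*Spo11*), against 29.7% and 24.5%. Without wild-type condensing replicate 1 or wild-type round replicate 1 the count of wild-type calls went from 3 to 1, leaving *Mlh3*, and with the similar round replicates summed it was 2 (*Msh5* and *Mlh3*). Both steps use the round spermatid libraries, so a library that is low there moves them in opposite directions. Somatic markers were higher in the condensing fraction: 8 Sertoli markers, none at 0, summed to 425 to 533 CPM in wild type against 41.4 to 54.3 CPM in round spermatids, and 7 Leydig markers to 147 to 227 CPM against 11 to 13.9 CPM. Markers of early spermatocytes, some of which belong to the recombination genes themselves, summed to 74.5 to 79.7 CPM in condensing spermatids, but without *Tex101* (32.0 to 53.5 CPM) the mean sum went from 27.7 to 24.3 CPM, with 4 of 7 higher and 3 lower. Late spermatocyte markers summed to 3333 to 3779 CPM in condensing and 4346 to 4669 CPM in round spermatids, with 2 of 8 higher and 6 lower. The 2 higher were *Piwil1* (63.5 to 193.6 CPM) and *Mybl1* (69.2 to 98.0 CPM). The part of other cells in the rise of *Mlh3* was not tested.

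**Figure D3:**
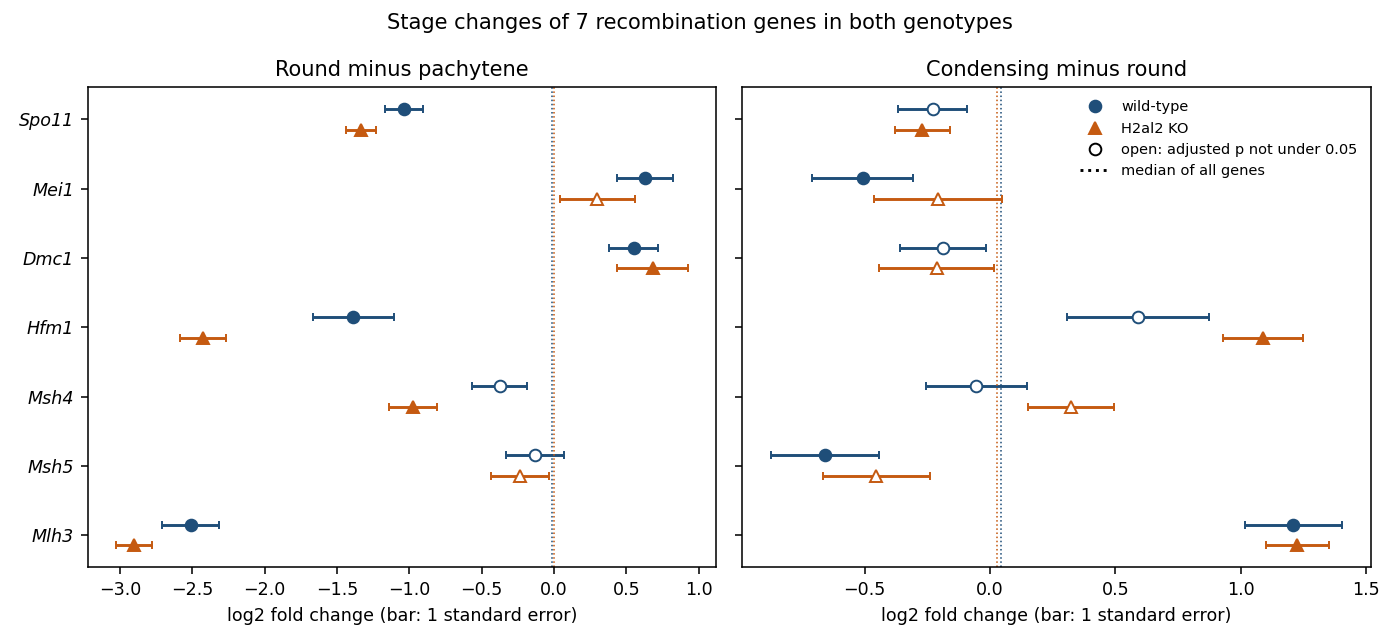
log2 fold change of the 7 genes for the steps pachytene to round (left) and round to condensing (right), in wild type and *H2al2* KO; bars are 1 standard error, open symbols missed the adjusted p of 0.05 and dotted lines mark the median of all genes. *Mlh3* lies at -2.51 and -2.90 in the first step and at 1.21 and 1.23 in the second, whereas *Dmc1* and *Mei1* lie to the right of the median in the first step.

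Beyond the set, 61 other recombination genes were listed by role, 56 had a row and 54 were tested. From wild-type pachytene spermatocytes to round spermatids 35 were lower, 8 were higher and 11 were not called, with a median log2 fold change of -0.73, against -0.02 over all genes, of which 35.9% were lower and 34.4% higher. With the similar round replicates summed, 32 were lower and 6 higher. *H2al2* KO gave 37 lower, 7 higher and a median of -0.92. From round to condensing 12 were higher and 8 lower in wild type, where 28.3% and 21.8% of all genes were. That split was 9 and 9 with DESeq2 size factors, 13 and 6 with library size only, and 8 and 7 with the similar replicates summed. *H2al2* KO gave 14 higher and 9 lower, against 29.7% and 24.5% of all genes.

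Of 25 strand exchange genes 20 were lower and 3 higher, against 35.9% and 34.4% of all genes, with a median of -0.97. With the similar replicates summed, 19 were lower and 3 higher. The largest falls were those of *Fignl1*, which encodes an AAA+ ATPase of meiotic recombination, from 158 to 24.5 CPM (-2.67, adjusted p = 2.59e-08), and of *Spata22*, partner of the single-strand DNA binding protein MEIOB, from 18.4 to 3.03 CPM (-2.58, adjusted p = 3.29e-07). The largest rises were those of *Tex15*, needed for loading of recombinases, from 53.3 to 356 CPM (2.76, SE 0.45, adjusted p = 0.000113), and of *Rad51ap2* (1.01, adjusted p = 0.0285).

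Of 18 tested genes of crossover designation and resolution, 10 were lower and 4 higher, against 35.9% and 34.4% of all genes. Their median was -0.45, and with those replicates summed 8 were lower and 3 higher. *Cdk2*, whose kinase sits at crossover sites, went from 130 to 11.8 CPM (-3.44, adjusted p = 3.94e-09), and *Ccnb1ip1*, which encodes the ubiquitin ligase HEI10, from 12.8 to 1.31 CPM (-3.26, adjusted p = 1.47e-07). Their fold changes were larger than that of *Mlh3*, a difference that was not tested. The helicase gene *Brip1* (1.07, adjusted p = 2.77e-05) and *Tex11* (0.99, adjusted p = 0.00216), an X-linked crossover gene, rose. Of 7 end-processing and break-signalling genes 3 were lower and 0 higher, led by the nuclease genes *Exo1* (-2.10, adjusted p = 4.68e-07) and *Dna2* (-2.01, adjusted p = 4e-06), with a median of -0.31 and the same counts with the replicates summed. A count of 3 in 7 is near the 35.9% of all genes called lower.

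Of 4 tested genes of break formation and placement besides *Spo11* and *Mei1*, 2 were lower and 1 higher, near the share of all genes. *Ccdc36*, now named *Iho1* (-1.16, adjusted p = 8.55e-05), and *Zcwpw1*, a reader of the marks PRDM9 writes (-0.92, adjusted p = 2.24e-05), fell. *Prdm9*, which places breaks at hotspots, rose from 2.92 to 4.86 CPM (0.76, SE 0.30, adjusted p = 0.0383). With the similar round replicates summed that rise was not called (0.73, adjusted p = 0.0761), and the calls of the 12 other genes named by list held.

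**Figure D4:**
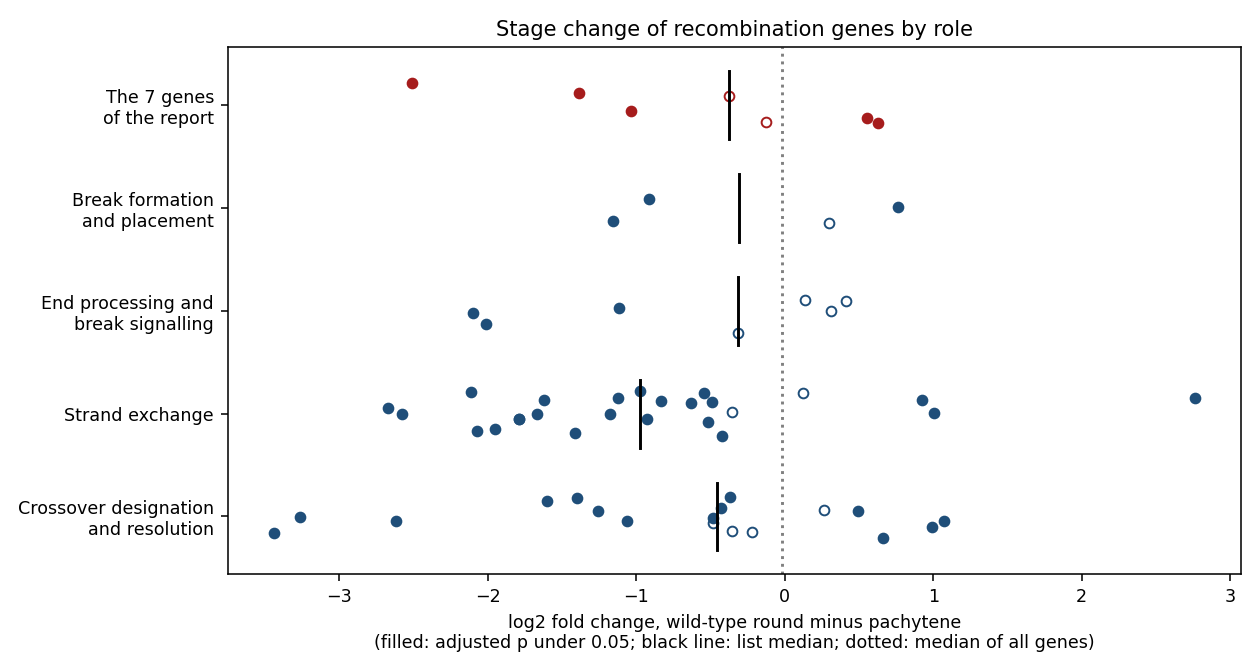
log2 fold change from wild-type pachytene to round for the 7 genes (red, top) and 54 other recombination genes by role (blue); filled points passed the adjusted p of 0.05, black lines are list medians and the dotted line the median of all genes. Most strand exchange genes lie left of the dotted line, *Tex15* at 2.76 being the farthest to the right.

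The series also asks whether loss of H2A.L.2 alters RNA levels. None of the 7 genes was called between *H2al2* KO and wild type in pachytene spermatocytes, round spermatids or condensing spermatids by edgeR or by the DESeq2 Wald test. Over all genes edgeR called 0% of 12236 genes in pachytene spermatocytes, 0.0156% of 12804 (2 genes) in round spermatids and 0.00728% of 13734 (1 gene) in condensing spermatids. At an unadjusted p under 0.05 there were 815, 753 and 870 genes, and of the 7 there were 0, 1 and 0, the exception being *Hfm1* in round spermatids. None of the 54 other recombination genes tested in pachytene spermatocytes, 51 in round and 53 in condensing spermatids was called.

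In pachytene spermatocytes the largest differences were those of *Hfm1*, at 118 ± 27.9 CPM in KO and 79.0 ± 35.1 CPM in wild type (SD, n = 3 each), and of *Mlh3*, at 158.5 ± 8.67 and 128 ± 33.8 CPM. The libraries overlapped for each of the 7 genes, against 11.4% of all genes whose genotypes did not overlap. The log2 difference was 0.63 for *Hfm1* (95% interval -0.15 to 1.40, adjusted p = 0.656), 0.36 for *Mlh3* (-0.12 to 0.84, adjusted p = 0.656) and 0.32 for *Msh4* (-0.16 to 0.80, adjusted p = 0.657). *Spo11* had the narrowest interval, -0.14 to 0.38 around 0.12 (adjusted p = 0.718). Changes of 2-fold therefore lay inside the interval for *Hfm1* and outside it for the other 6 genes. Over 11 alternatives the *Hfm1* difference ran from 0.30 to 1.05, with adjusted p from 0.0558 to 0.994. That of *Mlh3* ran from 0.14 to 0.62, with adjusted p from 0.0606 to 0.994, and neither was called in any of them. Elongating spermatid markers summed to 2486 to 2716 CPM in the KO pachytene libraries and to 4848, 4699 and 1896 CPM in the wild-type ones, and Leydig markers to 23.8 to 102 CPM and 76.0 to 158 CPM. Their part was not tested. *H2afb1*, with a log2 difference of -2.75, was not called in this test either.

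In round spermatids *Spo11* was the 1 gene whose genotypes did not overlap, at 30.6 to 33.4 CPM in KO and 35.3 to 40.0 CPM in wild type, where 9.89% of all genes had no overlap. Its log2 difference was -0.18 (95% interval -0.41 to 0.04, adjusted p = 0.92). *Hfm1* had a log2 difference of -0.40 (-0.76 to -0.04, unadjusted p = 0.0317, adjusted p = 0.786). Without wild-type round replicate 1, the low wild-type library at 22.3 CPM, *Hfm1* was called (-0.57, adjusted p = 0.0375), and with replicates 2 and 3 summed it was not (-0.32, adjusted p = 1). *Msh4* differed by -0.28 (-0.68 to 0.12), *Mei1* by -0.23 (-0.79 to 0.33), *Msh5* by -0.13 (-0.57 to 0.32), *Dmc1* by -0.11 (-0.53 to 0.30) and *Mlh3* by -0.03 (-0.34 to 0.28), none of them called.

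In condensing spermatids each of the 7 genes overlapped between genotypes, against 12.1% of all genes without overlap. *Spo11* differed by -0.24 (95% interval -0.52 to 0.04, adjusted p = 0.848), and the others lay between -0.15 for *Dmc1* and 0.09 for *Hfm1*. *Mlh3* was at 49.7 ± 3.96 CPM in KO and 50.2 ± 6.21 CPM in wild type, a log2 difference of -0.02 (-0.28 to 0.23, adjusted p = 0.994). All 7 intervals excluded a 2-fold difference in either direction.

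The difference in the KO effect between stages was tested as an interaction over 18 libraries. Of 14479 genes 0% were called for round against pachytene, and 0% for condensing against round, with 1050 and 407 genes at an unadjusted p under 0.05. Among the 7, *Hfm1* (-1.04, 95% interval -1.78 to -0.30, unadjusted p = 0.00825) and *Msh4* (-0.61, -1.14 to -0.08, unadjusted p = 0.027) had the lowest p for round against pachytene, both with an adjusted p of 0.676. The steeper falls of these genes in *H2al2* KO than in wild type were therefore not called as different. *Hfm1* passed the threshold without replicate 3 of each group. For condensing against round none had an unadjusted p under 0.05.

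**Figure D5:**
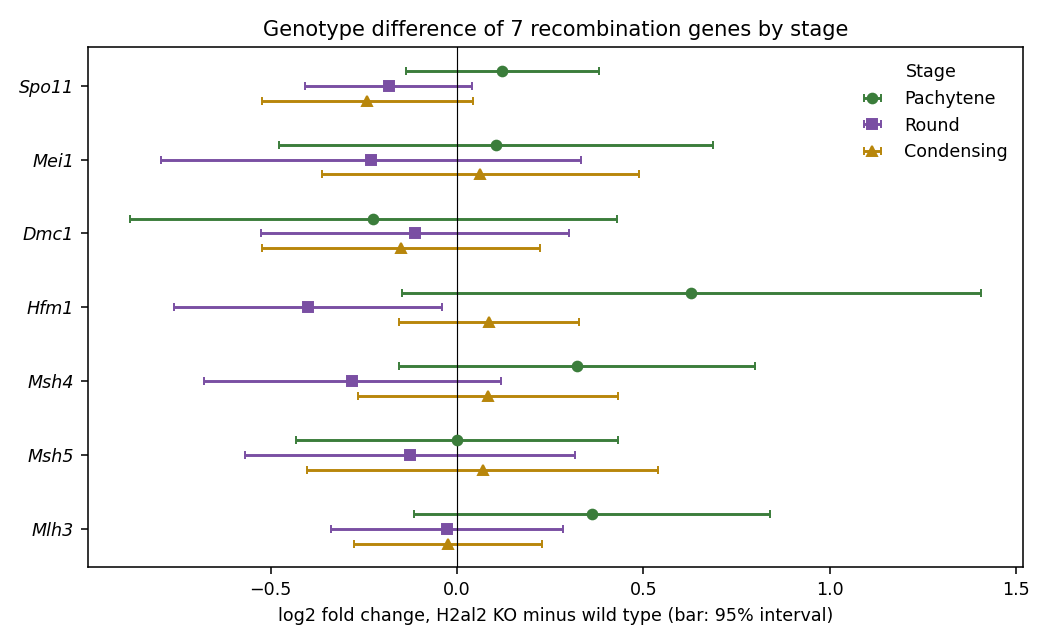
log2 fold change of *H2al2* KO minus wild type for the 7 genes at 3 stages; bars are 95% intervals. Each interval includes 0 except that of *Hfm1* in round spermatids (-0.76 to -0.04), whose adjusted p was 0.786.

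The genes most like each of the 7 in level were found over 21 libraries among 16826 genes, as Pearson's r of log2(CPM + 1), a description that carries the stage differences of all libraries. *Mlh3* followed *Taf2* (r = 0.993) and *Baz1a* (0.987), *Spo11* followed *Wwc2* (0.989) and *Dmap1* (0.988), and *Hfm1* followed *Gm1564* (0.985) and *Sgol2a* (0.983). *Msh4* was nearest to *4930433N12Rik* (0.962) and *Gml2* (0.954), and *Mei1* to *Ttc23* and *Kiz* (both 0.947). *Dmc1* was nearest to *Rtn1* (0.908) and *Pfn3* (0.875), and *Msh5* to *Ptk2* (0.839) and *Fancl* (0.797), the loosest matches. Within the set the highest r were those of *Spo11* with *Msh4* (0.908) and with *Hfm1* (0.893), *Msh4* with *Msh5* stood at 0.271, and the lowest was that of *Dmc1* with *Mlh3* (-0.20).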

How the data were processed

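Total RNA of purified spermatogenic fractions was depleted of ribosomal RNA, sequenced in pairs and, as the authors describe, aligned untrimmed to mm10 with STAR (2.7.11b) and counted with HTSeq over exons on the transcribed strand, without reads that aligned to several places. The authors deposited raw counts per gene and library, with no normalization or pooling. The 5 rows naming no gene, with 34.6% to 57.7% of counted reads, entered neither library sizes nor tests.

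Groups follow the labels. The genes and lists were chosen with earlier results of these data known. The test was the quasi-likelihood F-test of edgeR (version 4.0.16, in R 4.3.3) with TMM, filterByExpr (min.count 10) and Benjamini-Hochberg adjustment over all genes at 0.05, in fits of 9 libraries for stage steps, 6 for genotype and 18 for interactions. All 7 genes passed the filter in each fit. Spermatozoa were not tested. Exon lengths are the merged exons of GENCODE transcripts paired with curated RefSeq RNAs. Each fit was first checked on simulated counts in which few genes were changed. That check does not cover scaling where many genes move, as between these stages. Alternatives were DESeq2 size factors, the DESeq2 Wald test (1.42.0), no filter, a replicate block, library size only, a fit on 18 libraries, each replicate left out and, chosen after seeing the data, wild-type round replicates 2 and 3 summed.

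All 7 genes are named throughout. Other recombination genes are named by a rule, the 2 largest falls and the 2 largest rises called per list in the wild-type step from pachytene to round. For each of the 7 the 2 genes of highest r are named.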

Additional observations from a re-analysis of the deposited data

Results flagged for a closer look

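Spermatozoa entered no test, and each of the 7 genes had counts there above the 3 that a count of 0 allows, which is why they are listed. Summed over the 3 libraries, *Mlh3* had 233 counts, *Msh5* 83, *Spo11* 70, *Hfm1* 63, *Dmc1* 44, *Msh4* 22 and *Mei1* 11. *Mlh3* measured 21.2 and 30.7 CPM in the wild-type libraries and 22.8 CPM in the *H2al2* KO library, below every condensing library and overlapping the round spermatid libraries. *Spo11* measured 10.6 and 4.94 CPM and 6.15 CPM, and *Hfm1* 8.82 and 6.70 CPM and 4.31 CPM, each below all spermatid libraries. *Msh5*, at 10.9 and 8.11 CPM in wild type and 7.08 CPM in *H2al2* KO, lay within the range of its spermatid libraries. *Dmc1* measured 7.35 and 4.94 CPM in wild type and 1.54 CPM in *H2al2* KO, from 25, 14 and 5 counts. *Mei1* had 9 and 2 counts in wild type and 0 in *H2al2* KO, and *Msh4* 14, 1 and 7. With 1 KO library there is no replicate check. Macrophage markers summed to 740 and 781 CPM in the wild-type libraries and to 3625 CPM in the KO library, against at most 35.2 CPM in any condensing library, and epididymis markers to 1834 and 1949 CPM and to 581 CPM, with *Lcn5* and *Lcn8* at 0 in all 3. Their part in these values was not tested.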

How the results depend on the processing

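Of 672 fold changes of the 7 genes under alternatives, 610 kept direction and side of the threshold, 30 lost the call, 10 gained it and 22 changed sign, none of these past the threshold in either setting. Of 112 mean levels 3 moved by more than the SD, all in KO pachytene spermatocytes with library size only (*Spo11* 86.4, *Msh4* 19.1 and *Mlh3* 172 CPM). The counts of genes called ranged, with 1 library left out, from 4 to 6 for both steps from pachytene to round, from 1 to 4 for wild-type condensing against round, from 0 to 1 for KO against wild type in round spermatids and, with 1 replicate number left out, from 0 to 1 for the interaction of round and pachytene. *Msh4* from wild-type round to condensing was 0.011 with library size only, and with 1 library left out ranged from -0.21 to 0.030. The other signs changed with a library left out. These were *Msh5* from wild-type pachytene to round (-0.35 to 0.022) and *Mei1* from KO round to condensing (-0.53 to 0.024). Between genotypes in pachytene spermatocytes they were *Mei1* (-0.059 to 0.30), *Dmc1* (-0.44 to 0.049) and *Msh5* (-0.15 to 0.17). In round spermatids they were *Mlh3* (-0.16 to 0.065), *Dmc1* (-0.30 to 0.035), *Mei1* (-0.47 to 0.065) and *Msh5* (-0.27 to 0.099), and in condensing spermatids *Msh4* (-0.043 to 0.17), *Msh5* (-0.15 to 0.19), *Mlh3* (-0.11 to 0.070) and *Mei1* (-0.025 to 0.24). The cause was not tested.

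Replicate numbers are not read as pairs, since in no comparison did every number correlate above 0.1 in its deviations. With the replicate block 5 and 3 of the 7 genes were called for the wild-type steps, 5 and 2 for the KO steps (*Spo11* from round to condensing was lost, adjusted p = 0.065), and 0 between genotypes and for both interactions. *Mei1*, *Dmc1*, *Msh4* and *Msh5* rest on 24 to 125 counts per stage library.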
